A study of Mus musculus with 4 samples.

Results

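The epidermal growth factor (EGF) receptor system was followed through 8 genes, 5 ligands and 3 receptors, in the cells of irradiated and mock-treated mouse tumors. The ligand genes were Areg (amphiregulin), Ereg (epiregulin), Hbegf (heparin-binding EGF-like growth factor), Tgfa (transforming growth factor alpha) and Btc (betacellulin), and the receptor genes were Egfr, Erbb2 and Erbb3. The genes were listed by name, by a rule that uses none of their values, although the family was chosen with earlier results of these data known. By symbol, 8 of 8 were matched among the 18605 genes that the count tables of all 4 libraries shared.

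EGF receptor ligands are made as membrane-bound precursors and are cut free by metalloproteases such as Adam17, so a cell can signal to itself, to its neighbours or to cells farther away. Binding of a ligand makes a receptor pair with another member of the family, after which the MAPK cascade switches on early genes and its own inhibitors. Erbb2 binds no ligand and Erbb3 has little kinase activity, and both work mainly as partners in such pairs. In epithelial tumors the system is known as a driver of growth, and amphiregulin is also known as a product of myeloid cells and regulatory T cells in injured tissue.

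LLC (Lewis lung carcinoma, a lung cancer cell line of C57BL mice) was injected under the skin of C57/BL6N mice aged 6 to 8 weeks, and tumors of about 100 mm3 were irradiated or mock-treated. The irradiated group (RT) received 24 Gy as 3 fractions of 8 Gy on days 7 to 9 after injection and gave 3 libraries (RT1 to RT3) from 1 tumor each. The mock-treated group (NT) gave 1 library in which 3 tumors were pooled, and all tumors were collected 72 h after treatment. Because NT was 1 library, no test between NT and RT was possible, and a change is named only where it passed the size rule given below.

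The tables held 69667759 UMIs (unique molecular identifiers, each standing for 1 captured RNA molecule) in NT, 78585759 in RT1, 108699844 in RT2 and 85660188 in RT3. After cells with few genes or a high mitochondrial share were removed, 9976, 15029, 14993 and 15060 cells remained. The table of RT2 had no cell above 11.95% mitochondrial UMIs, whereas the other tables reached 91.46% or more, so it appeared to have been filtered before deposit. Between 175 and 274 barcodes occurred in both libraries of a pair, under 2% of the smaller library in each case.

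Cells were clustered without these genes and named by marker genes, so each name below is short for cells like that type. The 4 libraries held 26654 tumor cells, 7432 macrophages, 6275 monocytes, 1685 lymphocytes, 899 dendritic cells, 573 neutrophils, 421 fibroblasts and 304 endothelial cells. Another 10815 cells in 3 clusters were left unnamed. The tumor list scored highest in 2 of them, of which one (5299 cells) was shallow, with no tumor marker among its 10 leading genes, and the other (4595 cells) was led by the fibroblast marker Dpt, and in the third (921 cells) the best lists were too close. All 9 macrophage markers, 7 of 7 neutrophil, fibroblast and endothelial markers, 8 of 9 dendritic, 10 of 11 lymphocyte and 5 of 7 monocyte markers were highest in their own class. Of the 8 tumor markers, Rhox5, Krt8, Hmga2, Igf2bp2 and Igf2bp3 were highest in tumor cells and Krt18, Cldn4 and Ckb were not, and the leading genes of the tumor clusters were cell cycle, Lum, Gpnmb, ribosomal and interferon-induced genes. Monocytes made up 5.39% of NT cells and 12.4%, 13.5% and 12.3% of cells in the RT libraries, and macrophages 7.03%, 17.6%, 17.2% and 10.1%.

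Levels are UMIs of a gene per 1000000 UMIs of that cell type in that library (CPM), and values of RT libraries always stand in the order of their numbers. A 3′ UMI counts molecules, so levels were not scaled by gene length and are compared within a gene only. Intervals are 95% intervals, exact Poisson for a level, exact conditional for a ratio of levels and Clopper-Pearson for a share, and cover counting error only. A gene passed the size rule in a cell type when its level was at least 2-fold higher, or at least 2-fold lower, in every RT library than in NT, among genes with 20 or more UMIs in that cell type.

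The plot of levels by cell type and library gives an outline of the system: Areg was highest in monocytes and dendritic cells, Ereg in fibroblasts, neutrophils and tumor cells, whose ranges overlapped, Hbegf in endothelial and tumor cells, and Egfr in fibroblasts.

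**Figure D1:**
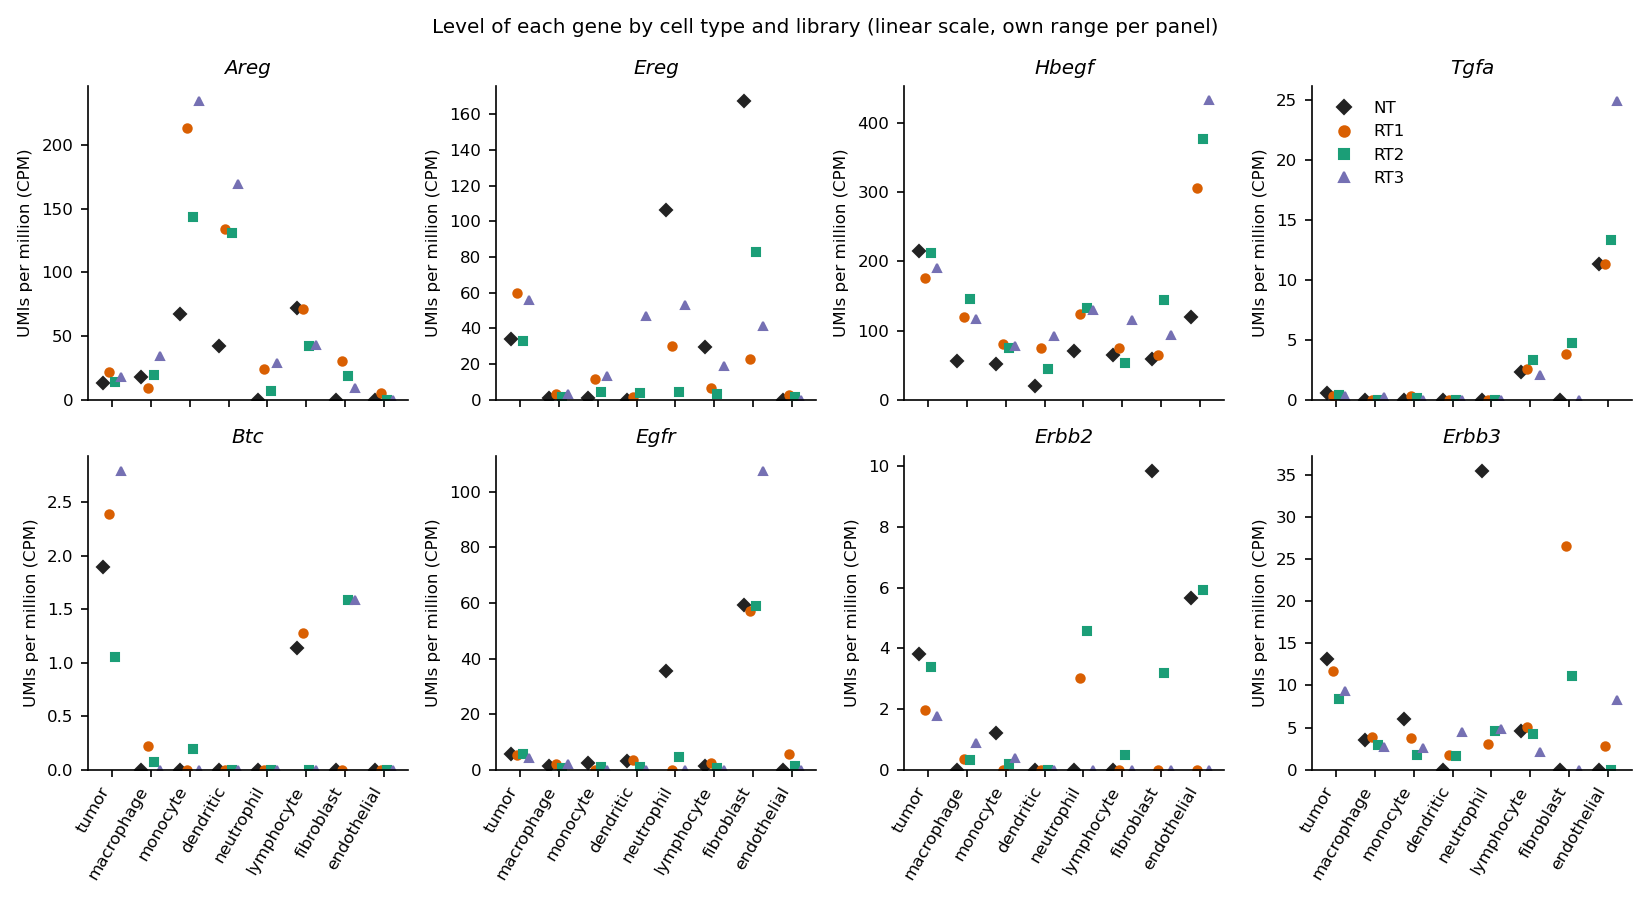
Levels of the 8 genes (CPM, y axis) in each named cell type (x axis), with 1 point per library. Areg in monocytes lay at 67.2 CPM in NT and between 143 and 234 CPM in the RT libraries, and Hbegf in macrophages at 56.3 CPM in NT and between 117 and 146 CPM in RT.

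Areg, which encodes a ligand of Egfr alone, was higher in monocytes and dendritic cells of every irradiated tumor, and not by the size rule in tumor cells. Over all cells its level was 14.6 CPM in NT and 30.8, 22.4 and 27.6 CPM in RT, and all 3 RT libraries lay above NT. In monocytes the level was 67.2 CPM in NT (50.7 to 87.2, from 56 UMIs) and 213.5, 143.4 and 234.4 CPM in RT. The lowest RT library was above the NT interval, and Areg passed the size rule with a mean log2 ratio of 1.52 ± 0.38 (SD, n = 3 RT libraries). The ratio was 3.18 (2.42 to 4.25) for RT1, 2.14 (1.63 to 2.85) for RT2 and 3.49 (2.65 to 4.67) for RT3.

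In dendritic cells Areg was at 41.9 CPM in NT (13 UMIs) and at 134.0, 130.5 and 169.6 CPM in RT, and it passed the size rule there too (log2 ratio 1.78 ± 0.21). In tumor cells it was at 13.2 CPM in NT and 21.7, 13.9 and 17.6 CPM in RT, a log2 ratio of 0.40 ± 0.32 that did not pass. In the tumor cells without a UMI of the leukocyte genes Ptprc, Tyrobp, Lyz2 and C1qb, RT2 lay below NT (13.4 CPM in NT and 21.2, 11.6 and 16.9 CPM in RT). Macrophages overlapped, with 18.3 CPM in NT against 8.98, 19.5 and 34.5 CPM in RT. Lymphocytes, with 71.8 CPM in NT and 71.6, 42.3 and 42.9 CPM in RT, lay at or below NT in each RT library without passing the rule. Endothelial cells held 2 Areg UMIs in all, both in RT1. In the order of mean levels over the 4 libraries, the ranges of monocytes, dendritic cells and lymphocytes overlapped from each to the next, and a gap separated them from macrophages, tumor cells and the rest.

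The monocyte result depended on how finely cells were clustered. At a clustering resolution of 1.2 in place of 0.8, the monocyte class had a mean Areg log2 ratio of 0.54, and 4288 cells formed a cluster with Mmp12, Ppbp and Cxcl3 among its leading genes that was left unnamed. Of these cells 88.0% were monocytes at 0.8, and their Areg level was 55.3 CPM in NT and 240.5, 178.2 and 283.3 CPM in RT (log2 ratio 2.06 ± 0.34).

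Monocytes with at least 1 Areg UMI were more frequent in the RT libraries. They were 19 of 538 in NT, or 3.53% (2.14 to 5.46), and 10.6%, 9.49% and 11.3% in RT. After each cell was thinned to 1000 UMIs, which left out 191 NT and 1321 RT monocytes with fewer, the shares were 2.97% in NT and 8.54% in RT. A monocyte with Areg UMIs held 2.95 of them on average in NT and 3.42 in RT. As background, 1 of 271 RT endothelial cells (0.369%) had an Areg UMI, at a median depth of 2376 UMIs against 1601 UMIs in RT monocytes. In tumor cells, Areg stood at 7.53% to 19.7% of the monocyte level in the same library, whereas the monocyte genes Chil3, Ly6c2, Ccr2, Plac8 and Thbs1 stood at no more than 0.553%.

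Monocytes were not uniform. Sub-clusters were made over macrophages, monocytes and dendritic cells together, and the values given here are those of their cells in the monocyte class. One sub-cluster, with 1753 such cells, had Areg, Cxcl3 and Ppbp among its leading genes, so its high Areg level is a description, although Areg itself was kept out of the clustering. That level was 48.4 CPM in NT (12 UMIs in 157 cells) and 407.6, 242.0 and 496.9 CPM in RT. The sub-cluster led by Chil3 and Vcan, genes of classical monocytes, was at 56.9 CPM in NT and 157.1, 96.7 and 110.3 CPM in RT. The interferon-induced sub-cluster led by Ifit1bl1 and Slfn4 was at 98.4 CPM in NT (11 UMIs) and 114.2, 127.0 and 181.1 CPM in RT. All 3 lay above NT in every RT library, and the Cxcl3-led sub-cluster alone of them passed the size rule. The Cxcl3-led sub-cluster made up 29.2% of monocytes in NT and 27.6%, 28.4% and 27.5% in RT, and it held 21.4% of monocyte Areg UMIs in NT and 53.9%, 46.8% and 57.6% in RT. Within the dendritic class, the Cd209a-led cDC2-like sub-cluster was at 51.6 CPM in NT (11 UMIs) and 125.6, 177.6 and 204.7 CPM in RT. That passed the rule, counting its cells of the dendritic class alone. Its 3 NT cells in the macrophage class held 13 further Areg UMIs (559.0 CPM, against 22.4, 80.0 and 0 CPM in RT). Its 22 NT cells in the monocyte class held 1 (19.4 CPM, against 331.8, 366.6 and 278.5 CPM in RT).

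Within lymphocytes, regulatory T cell-like cells had the highest Areg level of the named sub-clusters in each library. Their level was 254 CPM in NT and 1044, 439.9 and 524.8 CPM in RT, from 30, 29, 50 and 17 UMIs in 60, 25, 59 and 24 cells. The 3 RT libraries were all above NT, on few cells. These cells were 15.8% of NT lymphocytes and 6.96%, 9.77% and 7.04% of RT lymphocytes, yet held 47.6%, 51.8%, 56.2% and 41.5% of lymphocyte Areg UMIs. An unnamed sub-cluster led by Ccl6, Lyz2 and Il1b, genes of myeloid cells, was higher in NT, at 301.7 CPM on 7 UMIs. NK-like cells were at no more than 6.27 CPM in any library.

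**Figure D2:**
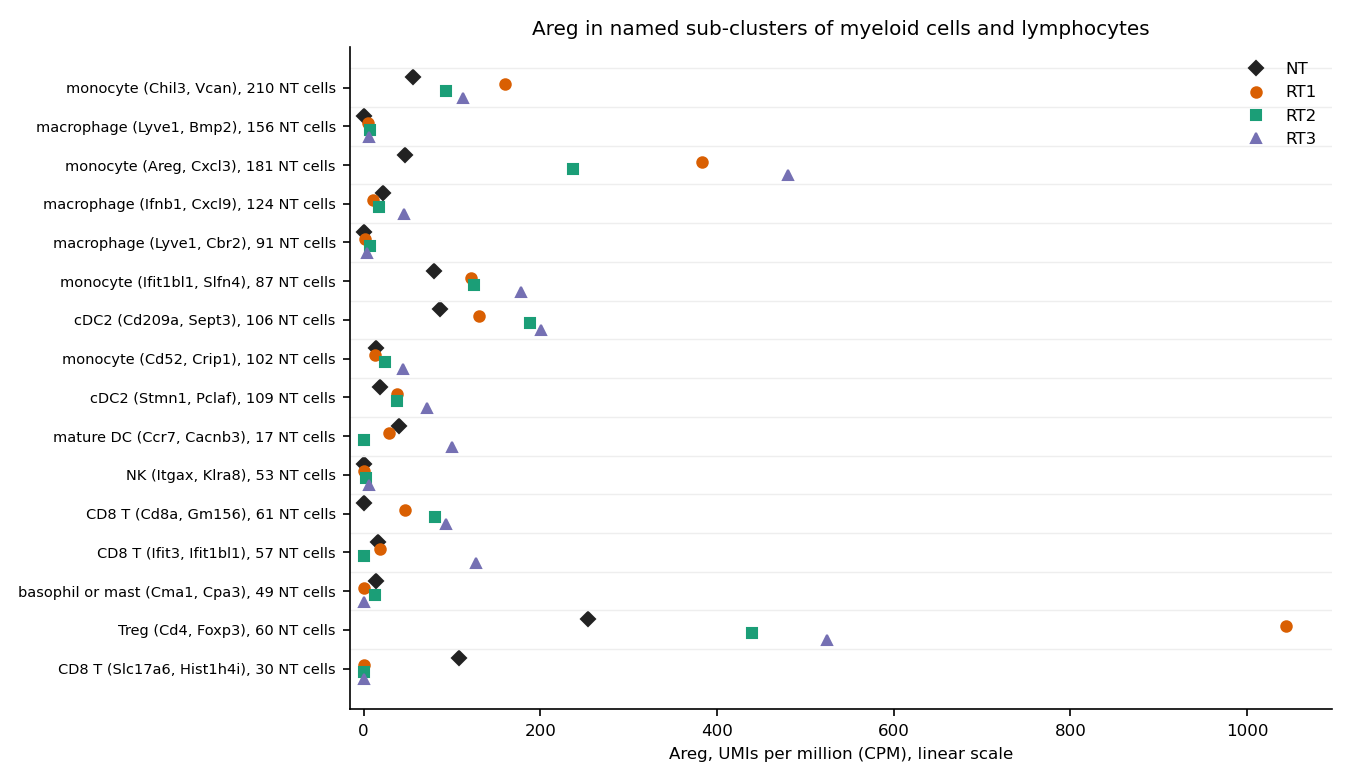
Areg level (CPM, x axis) in named sub-clusters of myeloid cells and lymphocytes (y axis, 1 macrophage sub-cluster not shown, with leading genes and the number of NT cells), with 1 point per library and all cells of each sub-cluster counted. Regulatory T cell-like cells and the monocyte sub-cluster led by Areg, Cxcl3 and Ppbp had the highest RT levels, up to 1044 and 480.2 CPM, and the macrophage sub-clusters plotted were at 45.5 CPM or below.

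Among tumor cells, Areg was highest in a few sub-clusters, which are called by their leading genes because several scored highest for the marker list of another class. The one of 966 cells led by Slc7a3 and Aldh1l2, genes of amino acid and folate metabolism, was at 43.4 CPM in NT and 49.1, 47.2 and 71.7 CPM in RT. It scored highest for the macrophage list, with Rhox5 at 908.5 to 1289 CPM. The one of 231 cells led by Hmox1 and Nos2 was at 51.0 CPM in NT and 53.4, 30.2 and 40.1 CPM in RT. The larger Birc5-led sub-cluster of cycling cells was at 13.8 CPM in NT and 21.4, 15.1 and 10.3 CPM in RT, below both in every library.

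The promoter of Areg is shown because Areg passed the size rule in monocytes and dendritic cells. It is the 250 bases before the RefSeq start, chr5:91139349-91139598 on the plus strand of GRCm38.p6, with matches to the cAMP response element TGACGTCA and the TATA box TATAAA in capitals.
Areg: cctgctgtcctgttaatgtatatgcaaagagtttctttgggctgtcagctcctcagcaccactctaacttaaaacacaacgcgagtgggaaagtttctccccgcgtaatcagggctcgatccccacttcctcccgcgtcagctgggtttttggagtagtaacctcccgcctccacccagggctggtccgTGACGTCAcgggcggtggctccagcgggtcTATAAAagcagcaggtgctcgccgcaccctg
The cAMP response element, the letters bound by CREB-family factors, began 61 bases before the start, and the TATA box began 31 bases before it. On either strand, 1.55% of 32851 promoters of the same length held TGACGTCA and 12.4% held TATAAA. The AP-1 letters TGACTCA or TGAGTCA were not in this window and were in 4.46% of promoters, and the matches did not overlap. These are letter matches only, and no binding was measured. On chromosome 5 Areg lies between Ereg and Btc, and Epgn lies on the far side of Ereg.

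Ereg, the gene next to Areg, encodes a ligand of both Egfr and Erbb4 and was mainly a tumor cell transcript. In tumor cells its level was 34.1 CPM in NT and 60.1, 32.9 and 55.8 CPM in RT. RT1 and RT3 were above NT and RT2 was slightly below, so the groups overlapped (log2 ratio 0.49 ± 0.47). The share of tumor cells with an Ereg UMI was 15.5% in NT and 19.6% in RT, or 2.93% and 4.14% after thinning. Within tumor cells, Ereg was on average highest in the sub-cluster of 3805 cells led by Lum, a matrix proteoglycan, at 94.4 CPM in NT and 162.4, 66.6 and 183.6 CPM in RT. It was next in the sub-cluster of 728 cells led by Il1rl1 and Mmp3, at 69.1 CPM in NT and 154.0, 80.1 and 104.6 CPM in RT, and the libraries of both overlapped. Both scored higher for the fibroblast list than for the other lists, and Dcn was among the leading genes of the Lum-led one. In the Lum-led cells the tumor marker Rhox5 was at 884.3 to 1231 CPM, against 128.1 to 242.9 CPM in the fibroblast class, and Col1a1 was at 2.22 to 14.6 CPM against 11211 CPM or more.

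Myeloid cells held few Ereg UMIs, and most of those that brought it over the UMI minimum came from RT. Monocytes had 1 UMI in NT and 36, 23 and 36 in RT, or 1.2 CPM against 11.4, 4.44 and 13.4 CPM. The ratios passed the size rule at 9.51 (1.6 to 385.9), 3.71 (0.602 to 152.6) and 11.2 (1.88 to 453.2), and the interval of RT2 included 1. At a clustering resolution of 1.2 the direction turned in the monocyte class, to a mean log2 ratio of -0.97. Macrophages had 2 UMIs in NT and 31, 24 and 14 in RT, or 0.777 CPM against 3.48, 1.81 and 3.08 CPM. There too the ratios passed, at 4.48 (1.14 to 38.6), 2.33 (0.579 to 20.4) and 3.96 (0.910 to 35.9), with the intervals of RT2 and RT3 including 1. Beside them, the tumor gene Rhox5 stood at 3.83% to 7.49% of its tumor level in macrophages, and Ereg at 2.28% to 5.80%. In monocytes the values were 5.03% to 7.54% for Rhox5, and for Ereg 3.51% in NT and 19.0%, 13.5% and 24.0% in RT. The listed tumor markers Krt8 and Krt18 reached 12.6% and 16.7% in macrophages, and 10.5% and 9.39% in monocytes. In cells without a Rhox5 UMI neither class passed the size rule for Ereg. In macrophages the level was then 0.888 CPM in NT (2 UMIs) and 2.931, 1.355 and 3.015 CPM in RT, still above NT in each. In monocytes RT stayed at 9.74, 4.07 and 13.0 CPM, and the call was lost because the 1 NT UMI was gone and a count of 0 is read as 3 counts. In the order of mean levels, fibroblasts, neutrophils and tumor cells came first and overlapped. Of the classes that followed, lymphocytes overlapped the first 2, dendritic cells all 3 and monocytes neutrophils alone. In tumor cells without the 4 leukocyte genes the mean was 45.4 CPM. Without Rhox5 UMIs it was 17.9 CPM in fibroblasts and 14.2 CPM in neutrophils, so tumor cells then came first by mean. The ranges still overlapped. The lowest library was at 30.8 CPM in tumor cells, and the highest at 38.2 CPM in fibroblasts and 31.3 CPM in neutrophils. The 17 Ereg UMIs of NT fibroblasts, 167.5 CPM, all lay in 1 of 18 cells, so that Ereg passed the rule as lower there, with 22.8, 82.6 and 41.2 CPM in RT. In fibroblasts without a Rhox5 UMI the call was lost, with no UMI in NT, where 3 UMIs would stand for 35.3 CPM, and 14.2, 19.2 and 38.2 CPM in RT. Ereg also passed as lower in neutrophils, at 106.5 CPM in NT (3 UMIs in 20 cells) and 30.4, 4.56 and 52.9 CPM in RT, and neutrophils carried Rhox5 at 39.2% to 62.2% of its tumor level. Neutrophils without a Rhox5 UMI held 6 Ereg UMIs, none of them in NT, and fell under the UMI minimum.

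Hbegf, whose product binds Egfr, Erbb4 and heparan sulfate, was higher in macrophages of every irradiated tumor and not by the size rule in tumor cells, on 63959 UMIs in all. In tumor cells it was at 214.2 CPM in NT and 175.1, 211.3 and 189.7 CPM in RT. All RT libraries lay below NT, by a mean log2 ratio of -0.16 ± 0.14 that did not pass the size rule. In macrophages it was at 56.3 CPM in NT (47.5 to 66.3, from 145 UMIs) and 119.0, 145.7 and 117.0 CPM in RT. Every RT library was above the NT interval, and Hbegf passed the size rule with a mean log2 ratio of 1.17 ± 0.18. The ratios were 2.11 (1.78 to 2.53), 2.59 (2.18 to 3.08) and 2.08 (1.73 to 2.51), so RT1 and RT3 lay just past the 2-fold limit. Without integration of the libraries the rule was not met, at a mean log2 ratio of 1.06. Macrophage Hbegf stood at 26.3% of its tumor cell level in NT and at 68.0%, 69.0% and 61.7% in RT. The listed tumor markers Rhox5, Krt8 and Krt18 reached at most 7.49%, 12.6% and 16.7% there. In monocytes the Hbegf level was 51.6 CPM in NT and 80.5, 74.8 and 77.4 CPM in RT. It was higher in each RT library and short of the rule (log2 ratio 0.59 ± 0.05).

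Hbegf also passed the rule in dendritic cells, with 19.3 CPM in NT (6 UMIs) and 74.8, 43.8 and 91.5 CPM in RT, a call that was lost in dendritic cells without a Rhox5 UMI (23.4 CPM in NT and 67.8, 44.4 and 58.2 CPM in RT). In endothelial cells it was at 118.8 CPM in NT (21 UMIs in 33 cells) and 306.3, 375.9 and 432.1 CPM in RT, and passed with a log2 ratio of 1.63 ± 0.25. These 2 classes rested on few NT UMIs. In the order of mean levels, endothelial and tumor cells came first and overlapped. The tumor cell range lay above those of the 6 classes that followed, whereas that of endothelial cells, through its NT value, overlapped neutrophils, macrophages and fibroblasts.

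Macrophages with an Hbegf UMI were 12.1% in NT and 23.1% in RT, or 4.98% and 10.2% after thinning, and held 1.71 and 2.26 Hbegf UMIs each. The macrophage sub-cluster led by Ifnb1 and Cxcl9, both interferon-pathway genes, was at 36.1 CPM in NT and 73.5, 123.0 and 96.5 CPM in RT, counting its cells of the macrophage class as for the next 2. The sub-cluster led by Lyve1, Bmp2 and Ccl8 was at 103.1 CPM in NT, the highest NT level among these, and 155.2, 172.8 and 157.6 CPM in RT. Both lay above NT in every RT library, and of these 2 the Ifnb1-led one alone passed the size rule. The one led by Lyve1, Bmp2 and Ccl8, with 2131 cells, had ratios of 1.51 to 1.68. Another Lyve1-led sub-cluster, led also by Cbr2 and Ms4a7, was at 54.6 CPM in NT and 55.6, 60.1 and 103.8 CPM in RT. It did not pass the rule either. In tumor cells Hbegf peaked in a sub-cluster of 988 cells led by Dennd5b and Id1, at 556.1 CPM in NT and 354.9, 486.4 and 412.9 CPM in RT.

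**Figure D3:**
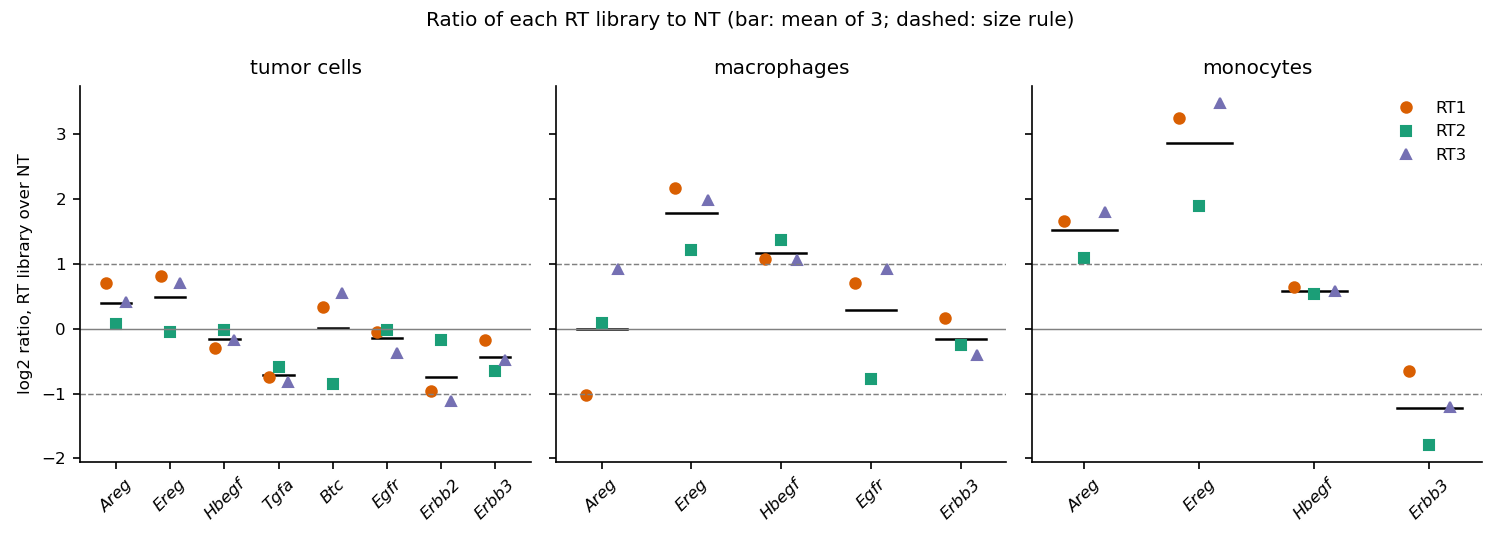
Log2 ratio of each RT library over NT (y axis) for the genes with 20 or more UMIs (x axis) in tumor cells, macrophages and monocytes, with 1 point per RT library, a bar at their mean and dashed lines at the size rule of ±1. All 3 points passed the upper line for Hbegf and Ereg in macrophages and for Areg and Ereg in monocytes, and for none of the 8 genes in tumor cells.

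Tgfa and Btc were scarce, with 141 and 638 UMIs over all cells. Tgfa, a ligand of Egfr, was at 0.577 CPM in NT tumor cells (31 UMIs) and 0.345, 0.384 and 0.325 CPM in RT, lower in every RT library without passing the rule (log2 ratio -0.72 ± 0.12). Its highest levels were in endothelial cells, at 11.3 CPM in NT and 11.3, 13.3 and 24.9 CPM in RT, on 18 UMIs in total, with a gap to the next cell type. Btc, a ligand of Egfr and Erbb4, was at 1.90 CPM in NT tumor cells and 2.40, 1.05 and 2.80 CPM in RT, and the groups overlapped.

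Egfr, the receptor of all 5 ligands, was at 5.60 CPM in NT tumor cells (301 UMIs) and 5.42, 5.51 and 4.33 CPM in RT. RT1 and RT2 were close to NT and RT3 was lower, with a log2 ratio of -0.15 ± 0.20. The highest Egfr level was in fibroblasts, at 59.1 CPM in NT (6 UMIs) and 57.0, 58.8 and 107.6 CPM in RT, with a gap to the next cell type in order. An Egfr UMI was found in 5 of 18 NT fibroblasts (27.8%) and in 21.3% of RT fibroblasts. Among RT monocytes, the class of lowest mean Egfr level, the share was 0.0697%. In tumor cells the shares were 4.73% in NT and 4.15% in RT, or 0.615% and 0.522% after thinning.

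The fibroblast class held transcripts of other cell types, and their part in its values was not tested beyond the count without epithelial cells. All 4 pericyte markers were found and summed to 6088 CPM in NT and 1014, 54.0 and 430.5 CPM in RT, with Rgs5 the most abundant at 3744 CPM in NT and 732.7, 22.2 and 335.5 CPM in RT. The 3 adipocyte markers summed to 0 CPM in NT and 508.7, 7.94 and 248.5 CPM in RT, with Adipoq the most abundant. Krt10 and Epcam, the 2 of 5 keratinocyte markers found in the tables, summed to 0 CPM in NT and 224.0, 269.9 and 15.8 CPM in RT. Epcam was the more abundant in RT1 and RT2, at 216.4 and 252.5 CPM, and had no UMI in NT or RT3. Without the cells that carried either gene, fibroblast Egfr was 59.1 CPM in NT and 61.6, 62.3 and 102.9 CPM in RT. Fibroblast Areg had no UMI in NT, where 3 UMIs would stand for 29.6 CPM, and was at 30.4, 19.1 and 9.50 CPM in RT, or 4.40, 3.89 and 10.1 CPM without those cells.

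Within tumor cells, Egfr was on average highest in the Lum-led sub-cluster, whose marker levels are given with Ereg, at 15.5 CPM in NT and 10.3, 9.89 and 7.06 CPM in RT. It was lower in the cycling sub-cluster of 5393 cells led by Birc5, at 2.70 CPM in NT and 2.54, 2.10 and 2.95 CPM in RT. The libraries of these 2 sub-clusters did not overlap. The Lum-led sub-cluster was also the one with the highest mean Ereg level.

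**Figure D4:**
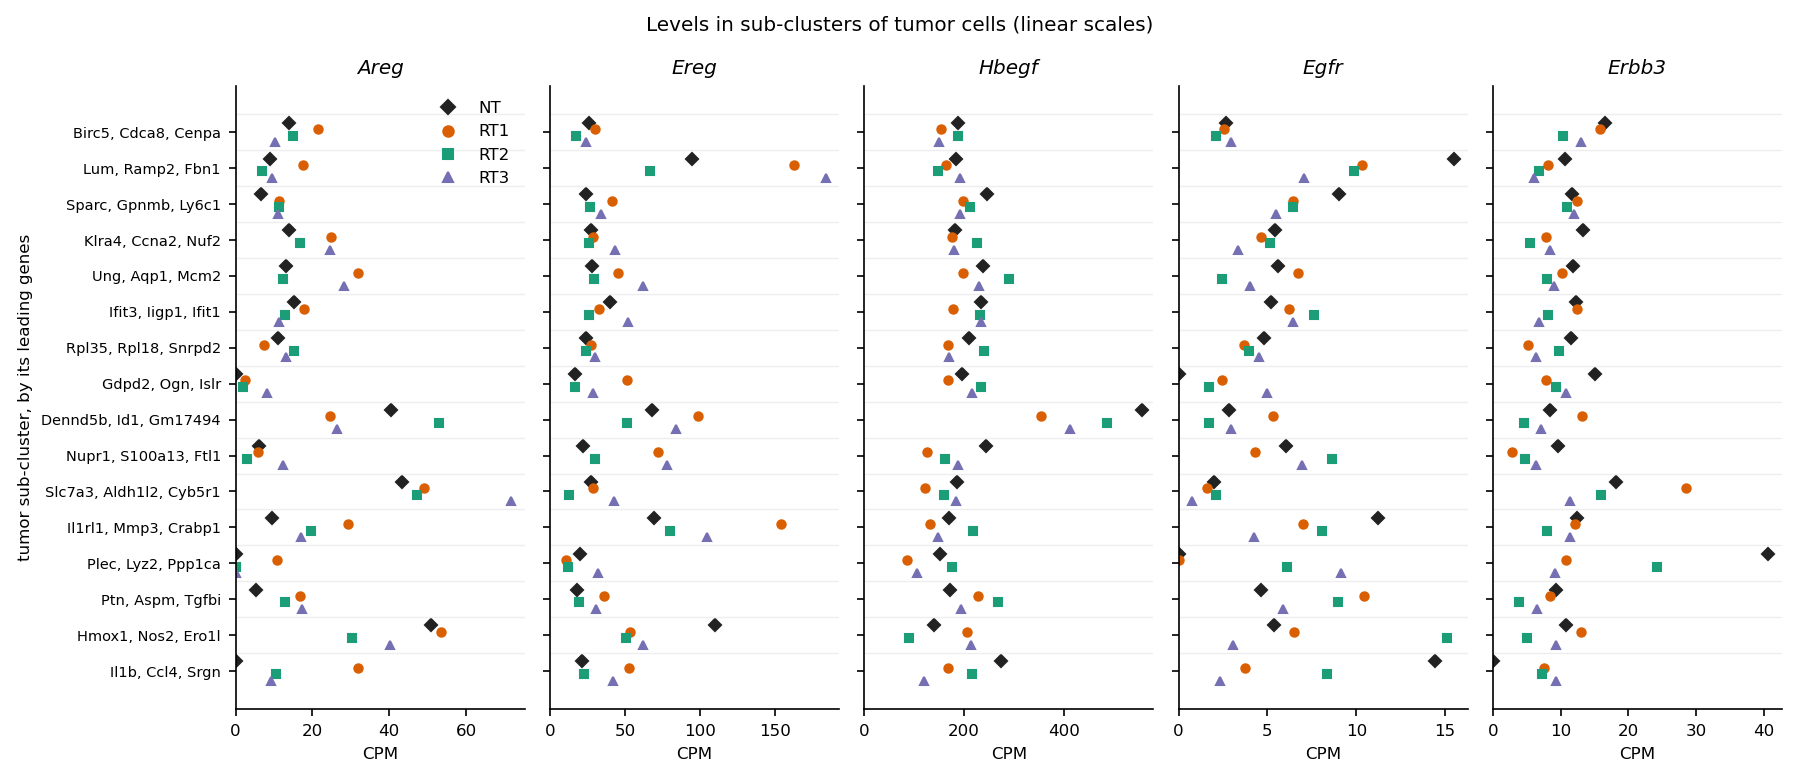
Levels (CPM, x axis, 1 panel per gene) of Areg, Ereg, Hbegf, Egfr and Erbb3 in 16 sub-clusters of tumor cells (y axis, named by leading genes), with 1 point per library. Ereg and Egfr were on average highest in the Lum-led sub-cluster, and Hbegf was highest in the Dennd5b- and Id1-led sub-cluster, at 354.9 to 556.1 CPM.

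Erbb2, the partner without a ligand of its own, was at 3.82 CPM in NT tumor cells and 1.95, 3.37 and 1.77 CPM in RT. All RT libraries were lower and RT2 was closest to NT, so the size rule was not met (log2 ratio -0.75 ± 0.50). The ratio was 0.512 (0.40 to 0.653) for RT1, 0.884 (0.730 to 1.07) for RT2 and 0.464 (0.365 to 0.589) for RT3. Erbb3, which binds neuregulins, was at 13.2 CPM in NT tumor cells and 11.7, 8.44 and 9.40 CPM in RT, also lower in each RT library and short of the rule (log2 ratio -0.43 ± 0.24). In monocytes Erbb3 was at 6.00 CPM in NT (5 UMIs) and 3.80, 1.74 and 2.60 CPM in RT, which did not pass. Within tumor cells Erbb3 was at 18.2 CPM in NT and 28.5, 16.0 and 11.4 CPM in RT in the sub-cluster led by Slc7a3 and Aldh1l2. In the Birc5-led cycling sub-cluster it was at 16.6 CPM in NT and 15.9, 10.3 and 13.0 CPM in RT.

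Counted by the size rule, 0 of 8 genes passed in tumor cells, where 5.18% of 14176 genes tested did, 4.94% as higher and 0.24% as lower. In macrophages 2 of the 5 that reached 20 UMIs were higher (Ereg and Hbegf), where 7.74% of 11716 genes passed, 4.87% as higher and 2.88% as lower. In monocytes 2 of 4 were higher (Areg and Ereg), where 7.63% of 10368 genes passed, 6.09% as higher and 1.54% as lower. In dendritic cells 2 of 3 were higher (Areg and Hbegf), where 7.88% of 7981 genes passed, 6.45% as higher and 1.43% as lower. In endothelial cells the 1 gene tested, Hbegf, was higher, where 8.55% of 6970 genes passed, 6.71% as higher and 1.84% as lower. None of the 8 passed as lower in these 5 classes. In fibroblasts 1 of 4 was lower (Ereg), where 13.2% of 7662 genes passed, 7.77% as higher and 5.42% as lower. In neutrophils 1 of 2 was lower (Ereg), where 27.9% of 5730 genes passed, 3.54% as higher and 24.4% as lower, and in lymphocytes 0 of 3 passed, where 4.62% of 9768 genes did, 3.45% as higher and 1.17% as lower. In lymphocytes without a Rhox5 UMI, however, Hbegf passed as higher, with 8.34 CPM in NT (5 UMIs) and 32.1, 35.9 and 51.8 CPM in RT, against 65.0 CPM in NT and 74.2, 53.3 and 115.2 CPM in RT in all lymphocytes, where the groups overlapped.

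By any amount, 5 of the 8 (Hbegf, Tgfa, Egfr, Erbb2 and Erbb3) lay below NT in all 3 RT libraries in tumor cells and 1 (Areg) lay above, where 29.4% and 33.5% of genes tested did. In macrophages the 2 that passed were the only ones tested that lay on 1 side, above NT, where 35.5% of genes lay above in all RT libraries and 31.5% below. In monocytes Areg, Ereg and Hbegf lay above and Erbb3 below, against 43.5% and 24.4% of genes. In dendritic cells Areg, Ereg and Hbegf lay above, against 34.1% above and 27.1% below, Ereg with no UMI in NT, which leaves its side uncertain. In endothelial cells Hbegf lay above, against 29.6% and 26.3%. In lymphocytes Areg and Ereg lay below, against 23.7% above and 36.1% below. In fibroblasts Areg (also without a UMI in NT) and Hbegf lay above and Ereg below, against 40% and 31.8%. In neutrophils Hbegf lay above, on 2 UMIs in NT, and Ereg below, against 41.7% and 36.2%. In cells without a Rhox5 UMI, Ereg had no UMI in NT in monocytes, fibroblasts and neutrophils, and Hbegf had none in neutrophils. That leaves their sides uncertain there. In such cells lymphocyte Ereg fell under the UMI minimum, with 6 UMIs, and lymphocyte Areg and fibroblast Hbegf overlapped. Of the 56 Ereg UMIs of all lymphocytes, 47 lay in an unnamed sub-cluster led by Ly6c1, Igfbp4 and Sparc. In tumor cells without the 4 leukocyte genes, Areg and Egfr overlapped. The median log2 ratio of all genes tested was 0.007 in tumor cells, 0.012 in macrophages and 0.129 in monocytes, and that of the genes of the family tested was -0.16 in tumor cells, 0.28 in macrophages and 1.06 in monocytes. Ereg in monocytes and macrophages reached the UMI minimum through the RT libraries, so these counts describe the genes and are no support for a shared change.

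The sources of the ligands were set against the cells that carried the receptors. Tumor cells held 70.4% (67.5 to 73.2) of Areg UMIs in NT and 47.2%, 40.0% and 46.2% in RT. Monocytes held 5.55% (4.22 to 7.14) in NT and 28.1%, 30.4% and 26.8% in RT. The RT libraries lay close together and apart from NT for both, but the monocyte share depended on how the class was drawn, and its RT mean of 28.5% was 5.98% at a clustering resolution of 1.2. For Hbegf, tumor cells held 80.9% in NT and 71.0%, 71.3% and 72.7% in RT, and macrophages 1.02% in NT and 8.24%, 9.26% and 3.32% in RT. Tumor cells held 80.5% of Ereg UMIs in NT and 82.3% ± 3.2 in RT. Among receptors, tumor cells held 72.7% of Egfr UMIs in NT and 67.3% ± 4.8 in RT, 88.4% and 81.7% ± 1.2 for Erbb2, and 86.3% and 78.7% ± 1.7 for Erbb3. Fibroblasts held 1.45% of Egfr UMIs in NT and 3.70%, 6.72% and 15.8% in RT. These shares join the level in a cell type with the number of its cells, and the shares of monocytes and macrophages among cells moved in the same direction. The part of cell numbers in each difference was not tested.

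**Figure D5:**
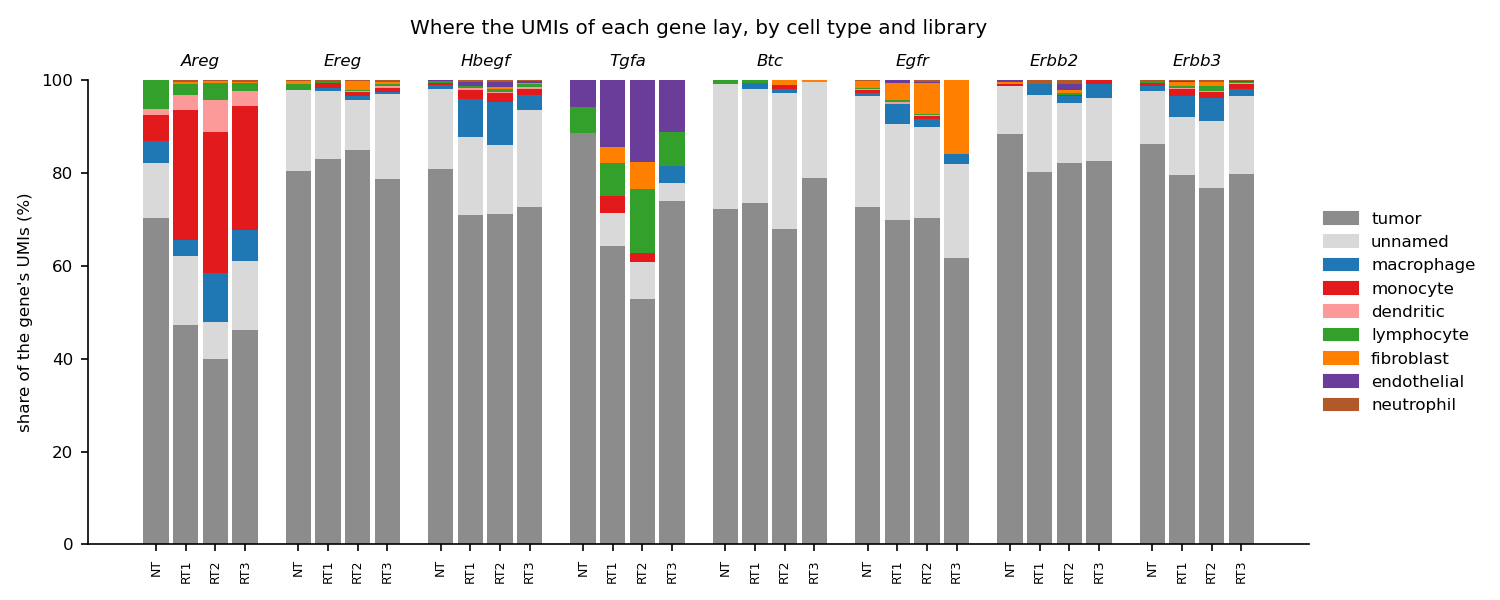
Share of the UMIs of each gene (%, y axis) by cell type (stacked segments, unnamed clusters included) in NT, RT1, RT2 and RT3 (bars). The tumor cell segment of Areg was 70.4% in NT and 40.0% to 47.2% in RT, and the monocyte segment was 5.55% in NT and 26.8% to 30.4% in RT at a clustering resolution of 0.8.

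Of 52 further genes of the pathway, listed by role, 50 were found in all tables, and Nrg3 and Erbb4 were not analysed here. They comprised 5 ligands, 8 genes of ligand release, 10 adaptors and turnover genes, 15 feedback inhibitors and 12 early and MAPK targets. In tumor cells 46 reached 20 UMIs, of which 2, both early targets, were higher and 0 lower by the size rule. Ier3, an immediate early gene that dampens apoptosis, was at 190.2 CPM in NT and 658.5, 756.8 and 436.5 CPM in RT. Egr1, an immediate early transcription factor, was at 0.689 CPM in NT (37 UMIs) and 4.98, 6.20 and 2.00 CPM in RT. Both were higher in every RT library, and the median log2 ratio of the 46 was -0.06. Among all genes 4.94% were higher. For the early and MAPK targets alone, the median log2 ratio was -0.34 in tumor cells, -0.29 in macrophages and -0.39 in monocytes.

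In macrophages 3 of 45 were higher and 1 was lower, with a median of 0.01. Ier3 was at 348.8 CPM in NT and 1099, 1784 and 886.9 CPM in RT, and Gab1, an adaptor that links receptors to PI3K, was at 15.9 CPM in NT and 46.4, 39.9 and 50.4 CPM in RT. Mmp13, a collagenase, was the lower one, at 527.5 CPM in NT and 204.5, 118.8 and 124.5 CPM in RT. The third higher gene, the MAPK inhibitor Spry4, was at 0.388 CPM in NT (1 UMI) and 5.17, 3.32 and 3.96 CPM in RT. In monocytes 3 of 42 were higher and 0 lower, with a median of 0.06. Ier3 was at 391.0 CPM in NT and 1670, 2264 and 996.0 CPM in RT, above NT in each RT library. The receptor inhibitor Lrig1 was at 1.2 CPM in NT (1 UMI) and 8.55, 6.57 and 11.5 CPM in RT, and the MAPK inhibitor Spry1 at 3.6 CPM in NT (3 UMIs) and 17.1, 8.50 and 12.3 CPM in RT. Against 4.87% of all genes higher in macrophages and 6.09% in monocytes, these counts are near the background, and Spry4, Lrig1 and Spry1 reached the UMI minimum through the RT libraries. Ier3 was higher in all 3 classes, and it is also a target of other pathways.

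The genes with the highest tumor cell levels in each role did not pass the rule there. Dusp6, the ERK phosphatase, was at 833.7 CPM in NT and 842.3, 855.0 and 732.6 CPM in RT. Fos was at 3905 CPM in NT and 3724, 4590 and 3665 CPM in RT, and Myc was at 3979 CPM in NT and 3286, 2567 and 3760 CPM in RT. These RT ranges spanned NT for Dusp6 and Fos, and lay below it for Myc. Socs3, an inhibitor of cytokine receptor signaling, was at 336.7 CPM in NT and 244.5, 299.9 and 276.1 CPM in RT, below NT in each. The adaptor Sh3kbp1 was at 101.1 CPM in NT and 137.6, 112.9 and 114.5 CPM in RT, above NT in each, and Eps15, which acts in receptor uptake, was at 114.0 CPM in NT and 133.1, 99.4 and 110.4 CPM in RT.

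Among genes of ligand release, the sheddase Adam17 was at 182.3 CPM in NT tumor cells and 216.9, 165.4 and 207.6 CPM in RT, and Adam10 was at 80.9 CPM in NT and 100.4, 81.2 and 87.7 CPM in RT. For Adam17 the NT level was inside the RT range, and for Adam10 it was just below it.

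The neuregulin gene Nrg1, whose product binds Erbb3, was on average highest in monocytes, macrophages and dendritic cells. Nrg1 had no UMI in neutrophils and stood at 12.7 CPM in RT3 fibroblasts (8 UMIs). It was at 19.2 CPM in NT monocytes and 19.6, 32.9 and 35.7 CPM in RT, and at 4.66 CPM in NT macrophages and 8.53, 11.1 and 13.0 CPM in RT. All RT libraries lay above NT in both, and in tumor cells no library exceeded 0.0854 CPM. Egf itself was at 1.10 CPM in NT tumor cells and 1.74, 1.68 and 1.25 CPM in RT, and Epgn, the neighbour of Ereg, was at 0.383 CPM or less in the tumor cells of every library.

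Across 28 profiles of 8 cell types and 4 libraries, other genes were ranked by how closely their levels followed each gene (Pearson r of log2(CPM + 1)). Profiles of one library share its depth and those of one cell type its cells, so these values are a description. Areg was followed most closely by Mbp (r = 0.85), Fbxo34 (0.83) and Atad2b (0.80), and Ereg by Ptges (0.89), Sox9 (0.87) and Ltbp1 (0.86). Hbegf was followed by Sh3bgrl2 (0.86), Arsa (0.85) and Oaz2 (0.84). Tgfa was followed by Epas1 (0.89), Nrarp (0.88) and Fgd5 (0.88), and Btc by Clcn2 (0.87), Mtch2 (0.83) and Tfcp2l1 (0.82). For the receptors the closest were Igsf10 (0.91), Tmem45a (0.89) and Nnmt (0.88) for Egfr, Eva1c (0.88), Misp (0.86) and Best1 (0.80) for Erbb2, and Stxbp4 (0.78), Epb41l5 (0.76) and Bhlhe41 (0.75) for Erbb3. Erbb3 thus had the loosest match of the 8.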

How the data were processed

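UMI counts per gene and cell were deposited by the authors for each library as SeekOne MM 3′ matrices. The study's methods name the SeekOne Tools pipeline, and the submitters' processing notes name STAR 2.5.1b, Subread 1.6.4, featureCounts, Cell Ranger and GRCm39, without roles. The tables of NT, RT1 and RT3 list 32285 genes and that of RT2 lists 18605, and the shared genes were used.

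Cells were kept if they had 200 or more genes and a mitochondrial share of UMIs of 20% or less. With Python 3.11.15, 2000 variable genes without the family or its pathway list, 30 principal components, a Harmony-style integration of libraries and Leiden clustering (leidenalg 0.10.2, resolution 0.8) gave clusters. A cluster was named by the marker list it scored highest for, by a margin of 0.05 and with at least 3 markers above the mean of clusters. It stayed unnamed if its 10 leading genes held more markers of another list, or held none of its own while its median depth was under 1/3 of its libraries' medians. Doublets were not removed in the main results, and an alternative left out the 8% of cells scored as likeliest doublets. UMIs were summed per library and cell type. A count of 0 was read as 3 counts in ratios.

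No test compared NT with RT, since NT is 1 library. The named genes are the 8 of the family, pathway genes past the size rule, the 2 highest pathway genes per role in tumor cells, and the 3 genes most alike. Nrg1, the highest of the other ligands in macrophages and monocytes, is named outside this rule. The family and the lists were chosen with earlier results of these data known. The size rule was tested on simulated data, with changes well past its limit in genes well over its UMI minimum. That does not cover calls close to the limit or on few NT UMIs. One macrophage sub-cluster is not reported here. TMM factors of edgeR 4.0.16 (R 4.3.3) served as an alternative.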

Additional observations from a re-analysis of the deposited data

Results flagged for a closer look

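Hbegf lay on opposite sides of its NT level in different cell types of the same tumors. Its log2 ratio of RT over NT was below 0 in tumor cells (mean -0.16) and above 0 in macrophages (mean 1.17) in every RT library, a difference of 1.33. Monocytes also lay above 0 in every RT library (mean 0.59), and the difference from tumor cells was 0.75. Both rest on the single NT library, and the difference was not tested. In tumor cells the Hbegf ratio of RT2 was 0.986 (0.962 to 1.01), so its interval included 1.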

How the results depend on the processing

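No paired analysis was possible because NT is 1 library without a replicate number to match and the results come from no test. Strict cells below are tumor cells without a UMI of 4 leukocyte genes, and other cells without Rhox5. Of 41 recomputed counts of genes past the size rule, 34 stayed within 1.5 times. In macrophages the count of 2 became 1 without integration (Ereg remained and Hbegf was lost), in strict cells and with at least 100 UMIs (Hbegf remained in both). In monocytes the count of 2 became 1 with at least 500 genes and at most 10% mitochondrial UMIs, in strict cells and with at least 100 UMIs, where Areg remained, and 0 at resolution 1.2. There Ereg in monocytes reversed to a log2 ratio of -0.97. Over the other alternatives the Areg log2 ratio in monocytes was 1.38 to 1.74, and Hbegf in macrophages was 1.06 to 1.23 over all.

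The median log2 ratio of the family in monocytes (1.06) was -0.43 at resolution 1.2, 1.28 without integration, 0.69 with at least 500 genes and 0.82 in strict cells. In macrophages (0.28) it ran from -0.033 to 0.81 when each RT library was left out in turn, with 0.81 without RT2. 

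Of 99 recomputed shares of UMIs, 31 moved by more than the SD over RT libraries. The mean RT share of Areg UMIs in monocytes (28.5%) was 31.9% at resolution 0.4, 5.98% at 1.2 (with a level of 111.4 CPM against 197.1), 33.05% without integration, 26.6% with at least 500 genes, 33.1% without likely doublets and 40.8% in strict cells. In strict cells, tumor cells held 39.4% of Areg, 94.9% of Ereg, 81.2% of Hbegf, 94.8% of Btc, 77.9% of Egfr, 93.1% of Erbb2 and 87.1% of Erbb3 UMIs. With the Dpt-led unnamed cluster counted as tumor cells, an alternative chosen after seeing the data, these were 50.1%, 92.5%, 84.4%, 91.8%, 81.1%, 91.1% and 86.8%. With both unnamed clusters nearest to tumor cells, also chosen after seeing the data, they were 51.3%, 94.2%, 85.9%, 95.1%, 83.6%, 93.5% and 90.4%. The tumor share of Hbegf was 70.5% at resolution 0.4 and 72.7% without likely doublets, where Erbb2 was 84.9% and Erbb3 81.0%. Tgfa in lymphocytes (2.66 CPM, 13 UMIs) was 0 CPM without integration and 3.47 CPM in strict cells. The cause of each was not tested. Depth limits Tgfa, Btc and the classes with few NT cells.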
